A study of Mus musculus with 16 samples.

Results

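Tac2 neurons were taken as cells that passed the cell filter (over 200 and below 4000 genes, with under 15% of UMIs on mitochondrial genes), had a UMI of at least 3 of 8 neuronal genes (Snap25, Syt1, Stmn2, Snhg11, Meg3, Celf4, Map1b and Ndrg4) and held at least 3 UMIs of Tac2. A UMI, a unique molecular identifier, marks 1 captured transcript molecule. The rule gave 260 cells among 9679 neurons and 55675 kept cells of 16 libraries. Of these, 115 cells also held a UMI of Esr1, Nov or Kiss1 and are called positive here, and 145 held none and are described separately. Tac2 and the 8 neuronal genes chose the cells and Esr1, Nov and Kiss1 divided them (members were chosen by their Tac2 and neuronal gene UMIs), so their values are given as a description wherever they did so.

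The hypothalamus and preoptic area of female mice were profiled by Drop-seq, in which single cells are caught in droplets with barcoded beads and the 3′ ends of their transcripts are read, with 1 library per mouse. The mice carried a floxed Esr1 allele on a mixed CD-1;129P2 background, and Esr1cKO mice also carried an Nkx2-1-Cre transgene, which deletes Esr1, the gene of estrogen receptor alpha, in cells that have expressed Nkx2-1, while wild-type mice were littermates without Cre. From an age of 8 to 10 weeks, mice received 28 daily injections of corn oil or of tamoxifen, a modulator of estrogen receptors, at 0.1 mg/kg. There were 3 wild-type oil, 5 wild-type tamoxifen, 4 Esr1cKO oil and 4 Esr1cKO tamoxifen mice. The deletion is limited to the Nkx2-1 lineage, and the 3′ reads need not come from an intact Esr1 transcript, so Esr1 UMIs do not check the deletion.

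Tac2 encodes the precursor of neurokinin B, a tachykinin that acts on the receptor Tacr3. In the arcuate nucleus of the hypothalamus it is made by neurons that also make kisspeptin (from Kiss1) and dynorphin (from Pdyn), known as KNDy neurons, which pace the release of gonadotropin-releasing hormone. Estrogen acting through estrogen receptor alpha is known to lower Tac2 and Kiss1 in the arcuate nucleus, and neurokinin B signalling is linked to heat loss and hot flushes. Tac2 is also made outside the arcuate nucleus, for example in the medial habenula, which lies above the hypothalamus, and in the extended amygdala.

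The genes that define or divide the cells lie at chr10:127724478-127731768 (Tac2, plus strand), chr1:133321875-133329901 (Kiss1, plus strand), chr2:129686565-129699844 (Pdyn, minus strand), chr10:4611593-5005614 (Esr1, plus strand) and chr15:54745702-54754039 (Nov, listed there as Ccn3, plus strand) of GRCm38 in GENCODE vM21. The 250 bases before a RefSeq transcription start of the 3 peptide precursor genes by which KNDy neurons are known are shown from RefSeq (GRCm38.p6), 5′ to 3′, with the short arms of the estrogen response element, GGTCA or TGACC (1 arm on either strand), in capitals.
Tac2 at chr10:127724228-127724477, plus strand: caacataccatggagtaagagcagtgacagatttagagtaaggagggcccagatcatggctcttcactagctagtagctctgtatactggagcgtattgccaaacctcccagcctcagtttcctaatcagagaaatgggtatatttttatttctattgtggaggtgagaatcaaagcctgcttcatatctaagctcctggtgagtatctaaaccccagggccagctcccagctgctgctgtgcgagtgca
Kiss1 at chr1:133326962-133327211, plus strand: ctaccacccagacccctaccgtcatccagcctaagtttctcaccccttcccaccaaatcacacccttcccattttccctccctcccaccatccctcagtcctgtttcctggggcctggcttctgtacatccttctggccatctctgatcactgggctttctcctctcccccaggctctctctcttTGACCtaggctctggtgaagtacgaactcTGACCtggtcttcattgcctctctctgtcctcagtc
Pdyn at chr2:129699939-129700188, minus strand: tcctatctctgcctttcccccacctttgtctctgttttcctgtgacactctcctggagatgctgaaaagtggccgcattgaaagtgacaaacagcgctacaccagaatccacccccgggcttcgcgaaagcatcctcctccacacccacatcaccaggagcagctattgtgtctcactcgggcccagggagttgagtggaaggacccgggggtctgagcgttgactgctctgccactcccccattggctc
The Kiss1 stretch held 2 arms, 65 and 36 bases before the start, and the Tac2 and Pdyn stretches held none. The RefSeq start of Kiss1 lies inside the longer GENCODE span given above, and a second RefSeq start of Pdyn, whose stretch at chr2:129698659-129698908 also held none, is not shown. Among 32851 stretches of the same length, 35.2% held at least 1 arm and 0.0639% held the full element GGTCANNNTGACC, which was in none of the 3. A match of these letters is a description of the sequence and not a binding site.

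The libraries held 5403 to 13515 barcodes and 2634253 to 8038158 UMIs, and 248 to 904 neurons each. The members of a mouse numbered 2 to 54 and held 8717 to 230870 UMIs in all, so that 3 UMIs stood for 12.99 to 344 CPM (counts per 1e6 UMIs), and lower values cannot be read in the mice with fewest cells. Members were deeper than other neurons, with a median of 3614.5 UMIs per cell against 1702, and the positive cells (4573) were deeper than the others (2939). Wild-type oil replicate 3 and Esr1cKO tamoxifen replicate 3 stood apart from the other libraries on the first principal component of all neurons (94.8 and 92.1 against -30.5 to -5.70, 59.3% of the variance). The 6 pairs among 4 libraries (wild-type tamoxifen replicates 4 and 5, Esr1cKO oil replicate 4 and Esr1cKO tamoxifen replicate 4) shared 303 to 359 kept barcodes, against 0 to 42 in the other 114 pairs, and 2 of the 260 members carried a barcode kept in a second library. Esr1cKO tamoxifen replicate 2 had 2 members and entered no fit on members.

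Tac2 neurons were a small class that varied between mice. Their share of neurons was 1.14%, 1.55% and 1.18% in the wild-type oil mice and 1.99%, 2.74%, 1.44%, 1.74% and 6.39% in the wild-type tamoxifen mice. In Esr1cKO mice it was 2.38%, 1.70%, 3.26% and 1.05% with oil and 2.28%, 0.806%, 6.61% and 4.12% with tamoxifen. The 2 highest mice, wild-type tamoxifen replicate 5 and Esr1cKO tamoxifen replicate 3, stood above all others, and the groups overlapped apart from them. The mean was 2.86% ± 2.03 (SD, n = 5) with tamoxifen and 1.29% ± 0.228 (n = 3) with oil in wild-type mice (exact two-sided permutation test, p = 0.196, adjusted over 6 comparisons of shares p = 0.589). It was 3.45% ± 2.50 (n = 4) and 2.10% ± 0.946 (n = 4) in Esr1cKO mice (exact permutation test, p = 0.429, adjusted p = 0.857), and 2.78% ± 1.89 in Esr1cKO against 2.27% ± 1.74 in wild-type mice (n = 8 each, exact permutation test, p = 0.575, adjusted p = 0.863). The 6 comparisons include those of the positive share of members, which is described below with no p-value. Without wild-type tamoxifen replicate 5 the tamoxifen difference in wild-type mice fell from 1.57 to 0.686 percentage points, and without Esr1cKO tamoxifen replicate 3 that in Esr1cKO mice fell from 1.35 to 0.301 and that by genotype turned to -0.0435. In these samples, fewer cells of a type and less Tac2 per cell cannot be told apart, since a cell with under 3 Tac2 UMIs is not counted.

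**Figure D1:**
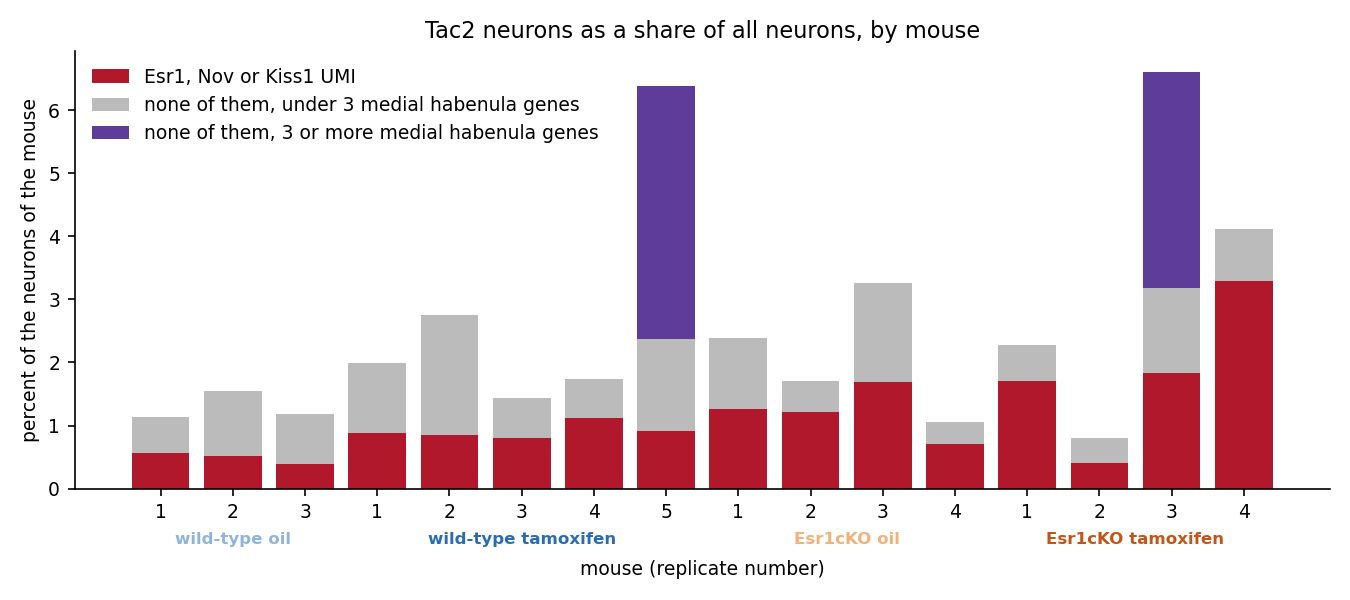
Tac2 neurons as a percent of all neurons (y axis) in each of the 16 mice (x axis, replicate number within a group), with the stacked bar divided into cells with an Esr1, Nov or Kiss1 UMI, cells without one and with fewer than 3 medial habenula genes, and cells without one and with 3 or more. The tallest bars, 6.39% and 6.61%, are the only ones with the third class.

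The cells without an Esr1, Nov or Kiss1 UMI set the high shares. Positive cells were 0.570%, 0.518% and 0.394% of neurons in wild-type oil mice and 0.885%, 0.858%, 0.797%, 1.12% and 0.912% in wild-type tamoxifen mice. Their means were 0.914% ± 0.122 with tamoxifen (n = 5) and 0.494% ± 0.0901 with oil (n = 3). The 0.912% of wild-type tamoxifen replicate 5 was 5 cells, of which 4 held 3 or more of the medial habenula genes named below. No positive cell of another mouse held as many. In Esr1cKO mice positive cells were 1.26%, 1.22%, 1.69% and 0.701% of neurons with oil and 1.71%, 0.403%, 1.84% and 3.29% with tamoxifen. The mean was 1.51% ± 0.877 in Esr1cKO and 0.757% ± 0.241 in wild-type mice (n = 8 each). Since Esr1, Nov and Kiss1 make a cell positive, these shares are a description, and no p-value is read from them. The cells without a UMI of the 3 genes were 5.47% of neurons in wild-type tamoxifen replicate 5 and 4.77% in Esr1cKO tamoxifen replicate 3, and 0.350% to 1.89% in the other 14 mice.

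Positive cells held 92.3% of the 8115 Tac2 UMIs of Esr1cKO members and 48.6% of the 1384 of wild-type members, from 15.9% in wild-type tamoxifen replicate 5 to 77.9% in wild-type oil replicate 3. The median was 76.5 Tac2 UMIs per cell in the 76 positive cells of Esr1cKO mice (3 to 291) and 14 in the 39 positive cells of wild-type mice (3 to 62). The other members had medians of 7 in 73 Esr1cKO cells (highest 31) and 8 in 72 wild-type cells (highest 41). As a mean share of the UMIs of a cell, Tac2 took 1.97% in positive Esr1cKO and 0.444% in positive wild-type cells, against 0.264% and 0.317% in the other members. The highest wild-type cell held 62 Tac2 UMIs, and 49 of the 149 Esr1cKO members held more, with at least 1 such cell in each of the 8 Esr1cKO mice. Since this limit is the highest wild-type cell, and Tac2 chose the members, these counts are a description only.

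**Figure D2:**
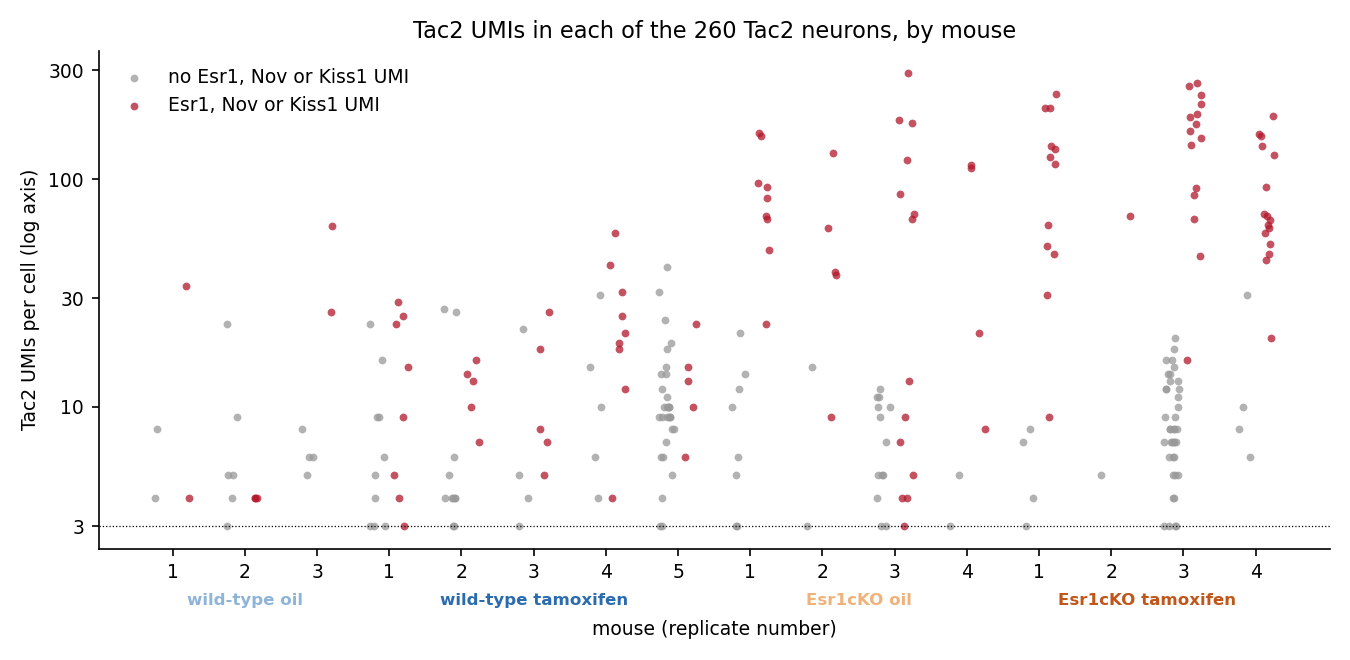
Tac2 UMIs per cell (y axis, log scale) in each of the 260 members, by mouse (x axis), with positive cells and other cells in different colours and the limit of 3 UMIs as a dotted line. Positive cells of Esr1cKO mice reach 69 to 291 UMIs in each mouse, while the highest cell of each wild-type mouse holds 23 to 62.

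At the limit itself, 22 cells held exactly 3 Tac2 UMIs, of which 9.09% were positive and none held Pdyn. Just outside it, 30 neurons held 2 Tac2 UMIs (6.67% positive) and 160 held 1 (15% positive). Among cells outside the neuron gate, whose median depth was 605 UMIs against 1729 in neurons, 0.478% held a Tac2 UMI, 2.93% an Esr1 UMI, 0.709% a Nov UMI and 0.494% a Pdyn UMI, against 4.65%, 8.62%, 2.30% and 6.31% of all neurons. Kiss1 was found in 1 of 45996 cells outside the gate (0.00217%) and in 35 neurons (0.362%).

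The 3 dividing genes and Pdyn were found together mostly in cells of Esr1cKO mice. In 149 Esr1cKO members Nov was found with Esr1 in 38, with Pdyn in 60 and with Kiss1 in 25. In 111 wild-type members it was found with none of them. Esr1 and Pdyn were together in 41 Esr1cKO and 17 wild-type members. The counts that follow pool the genotypes. Esr1 was detected in 88 members, Nov in 65 and Kiss1 in 28. All 28 Kiss1 cells also held Pdyn, 25 of them held Nov and 20 held Esr1, so that no cell was positive through Kiss1 alone. Nov was the only one of the 3 in 19 cells and Esr1 in 47. Pdyn was not used by the rule, and it was found in 81 of 115 positive cells (70.4%), in 14 of the 145 other members (9.66%) and in 5.48% of other neurons.

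The composition of the positive class differed by genotype. Nov was detected in 64 of 149 Esr1cKO members (43.0%) and in 1 of 111 wild-type members (0.901%), and Kiss1 in 26 and 2 cells. Esr1 was detected in 50 Esr1cKO members (33.6%) and 38 wild-type members (34.2%), at median depths of the positive cells of 4890.5 and 4216 UMIs. With each cell taken at 1000 UMIs, as the share expected on drawing that many of its UMIs, Esr1 was in 10.2% of Esr1cKO and 16.95% of wild-type members, and Nov in 31.3% and 0.299%. Of the wild-type positive cells, 36 of 39 were positive through Esr1 alone, against 11 of 76 in Esr1cKO mice. Pdyn was found in 64 of 76 positive Esr1cKO cells (84.2%) and 17 of 39 positive wild-type cells (43.6%), and in 5 of 73 (6.85%) and 9 of 72 (12.5%) of the other members. Per mouse, the share of members that were positive was 60.8% ± 18.03 in Esr1cKO (n = 7) and 40.8% ± 15.9 in wild-type mice (n = 8), and 41.3% ± 13.2 against 25.8% ± 14.4 in cells thinned to 1000 UMIs. The mean with tamoxifen was 3.08 percentage points from that with oil in wild-type and 0.204 in Esr1cKO mice. These shares rest on the dividing genes, mostly Esr1 in wild-type members and more often Nov than Esr1 in Esr1cKO members. They are given as a description, and no p-value is read from them.

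The label was checked against genes that the rule did not use. Positive cells carried the arcuate genes named here at shares far above those of other neurons. Tbx3, a transcription factor of the arcuate nucleus, was in 61.7% of positive cells, 4.83% of the other members and 5.31% of other neurons. Nkx2-1 was in 26.1%, 4.83% and 5.43% and Sox14 in 26.1%, 0.690% and 0.849%. Nhlh2, a helix-loop-helix factor of neuroendocrine neurons, was in 55.7%, 26.2% and 3.17%, and Inhbb, an inhibin subunit gene, in 26.1%, 2.76% and 1.19%. Sox14 and Inhbb were named after their values were seen, so they describe the cells and do not check the label. Prlr, the prolactin receptor, was in 72.2%, 20.7% and 10.8%, and Tacr3, the receptor of neurokinin B, in 33.9%, 8.97% and 4.92%. These shares pool the genotypes, and 76 of the 115 positive cells were from Esr1cKO mice. Among positive cells, Tbx3 was in 77.6% of Esr1cKO and 30.8% of wild-type cells, Sox14 in 32.9% and 12.8%, Nkx2-1 in 31.6% and 15.4%, Prlr in 81.6% and 53.8%, Nhlh2 in 55.3% and 56.4%, and Tacr3 in 31.6% and 38.5%. Deeper cells show a gene more often, so the shares were also taken at 1000 UMIs per cell, which left out 5 positive cells (3 Esr1cKO and 2 wild-type), 16 of the other members and 2740 other neurons. At that depth Tbx3 was in 33.4% of Esr1cKO and 8.06% of wild-type positive cells and 3.14% of other neurons, Prlr in 44.6%, 26.9% and 6.73%, Nhlh2 in 19.8%, 29.2% and 1.53%, and Tacr3 in 9.83%, 13.3% and 2.05%. Nkx2-1 was in 7.31%, 4.32% and 2.78% and Sox14 in 9.999%, 2.76% and 0.461%, and in the 37 wild-type cells these shares stand for 1 or 2 cells, from which no difference is read. At this depth, with the genotypes pooled, Tbx3 (2.77%), Nkx2-1 (2.41%) and Sox14 (0.234%) were in the other members at no more than the share in other neurons. In wild-type mice Tbx3 was in 4.85% of the 64 other members and 2.94% of other neurons. Nkx2-1 was there in 4.35% and 2.79%, near its share in wild-type positive cells (4.32%). In Esr1cKO mice Tbx3 was in 0.718% and 3.32%, and Nkx2-1 in 0.506% and 2.76%. These shares stand for few cells, and no difference is read from them. Of the regional transcription factors tested below in all members, Nhlh2 and Tbx3 were higher, and Six3, Lhx1, Six6, Isl1 and Nr2f2 were lower.

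**Figure D3:**
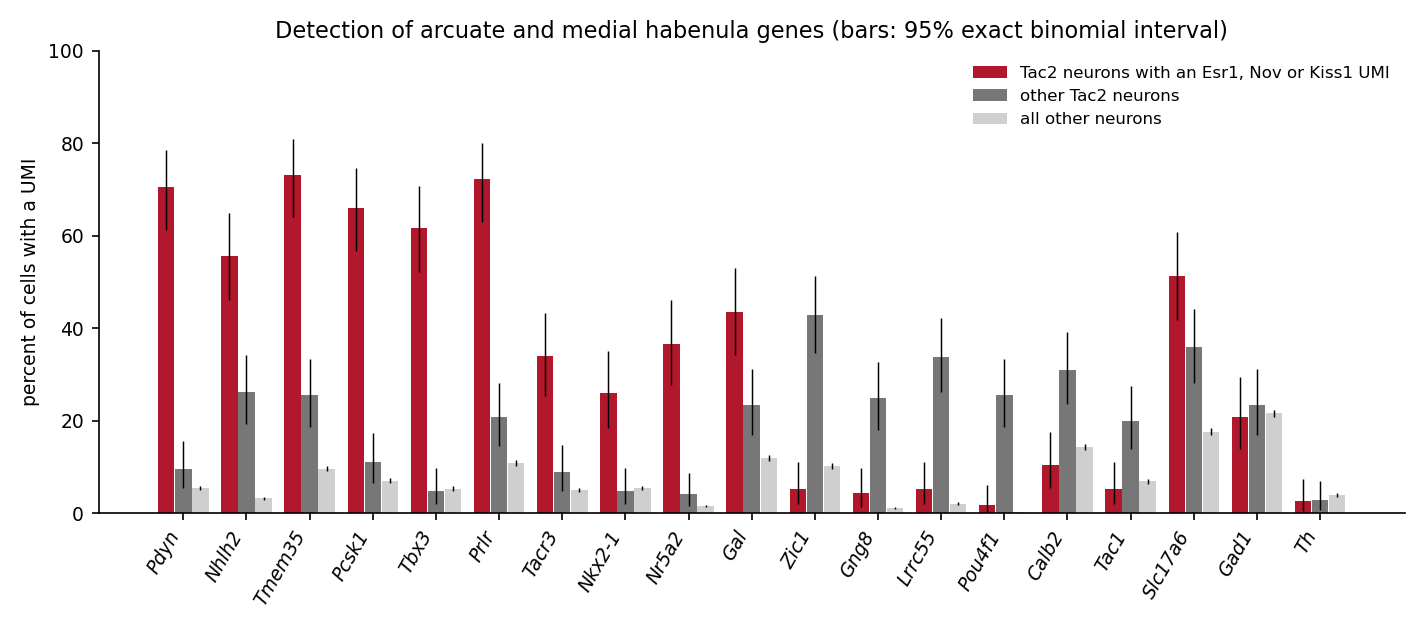
Percent of cells with a UMI (y axis) of 19 genes (x axis) in positive Tac2 neurons, other Tac2 neurons and all other neurons, with exact 95% binomial intervals that cover counting error only. Arcuate genes such as Tbx3 (61.7%) stand highest in positive cells and medial habenula genes such as Pou4f1 (25.5%) in the other members.

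Many of the other members carried medial habenula genes instead. At least 3 of 7 such genes (Pou4f1, Gng8, Lrrc55, Chrnb4, Chrna3, Calb2 and Tac1) were detected in 50 of the 145 other members (34.5%), in 4 of 115 positive cells (3.48%) and in 33 of 9419 other neurons (0.350%). Pou4f1, a transcription factor of habenular neurons, was in 25.5% of the other members and 0.223% of other neurons (12.1% and 0.140% at 1000 UMIs), Lrrc55 in 33.8% and 2.04%, Chrna3, a nicotinic receptor subunit, in 22.8% and 0.754%, and Zic1, a transcription factor, in 42.8% and 10.1%. All 54 members with 3 or more of these genes came from 2 mice, 26 from wild-type tamoxifen replicate 5 and 28 from Esr1cKO tamoxifen replicate 3, the mice with the highest shares of Tac2 neurons. Some later counts and calls are therefore also given without these 2 libraries. The counts of all members and of positive cells against other neurons, and those against Agrp, Pomc and Gal neurons, are not.

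Against the other neurons of the same mouse, Tac2 neurons were higher for 5 of 12 peptide processing and granin genes and lower for none, and lower for 11 of 18 genes of other peptides and secreted factors. Of the 5, the Scg5 call was lost in 12 of 29 other settings, among them the fits without any 1 of the 7 Esr1cKO mice (lowest 0.15, with no filter on low counts), the Resp18 call in 3 and the Chgb call in 1. In edgeR's quasi-likelihood test on UMIs summed per mouse, with the mouse as a block (15 mice), 146 of 8335 genes were higher (1.75%) and 684 were lower (8.21%) at an adjusted p under 0.05, with a median log2 difference of -0.10 over all genes. The largest rises were in Nr5a2, a nuclear receptor (log2 difference 3.61 ± 0.28, SE), Nhlh2 (3.37 ± 0.21), Pdyn (3.15 ± 0.27), Tmem35 (2.79 ± 0.19) and Pcsk1, the prohormone convertase (2.78 ± 0.21). Nr5a2, Nhlh2, Tmem35 and Pcsk1 were higher in 15 of 15 mice and Pdyn in 14. Dgkk, a diacylglycerol kinase (2.25), Tbx3 (2.06), Esr1 (1.92), Mrps11 (1.92) and Prlr (1.91) followed.

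Of the hormone receptors, Esr1 (adjusted p = 9.00e-11, higher in 14 of 15 mice) and Prlr (adjusted p = 4.94e-13) were higher, and the nuclear receptor genes Nr3c1 (-1.63) and Thra (-0.48) were lower, the latter not without the medial habenula libraries (-0.40, adjusted p = 0.118) nor without the libraries that stood apart. Tacr3 rose by 1.81 ± 0.28 (adjusted p = 1.07e-06, 14 of 15 mice) and was the only called gene of 3 tested receptors for kisspeptin, tachykinins and opioids. Among 18 other peptide and secreted factor genes, Vgf (1.42), Gal (1.17) and Bdnf (1.55) were higher and 11 were lower, led by Avp (-7.16), Oxt (-5.24), Vip (-5.25) and Sst (-3.90). The Bdnf (0.39, adjusted p = 0.783) and Vgf (1.01, adjusted p = 0.0877) calls were lost in DESeq2. Npy had 0 UMIs in members and 4057 in other neurons, which makes it at least 64.6-fold lower with the floor of 3 UMIs over all members.

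Of 8 transmitter genes tested, none was higher and Slc18a2 (-1.72), Ddc (-1.49), Th (-1.72) and Gad1 (-0.69), which serve monoamine and GABA neurons, were lower, while the vesicular glutamate transporter gene Slc17a6 did not pass (0.16 ± 0.15, adjusted p = 0.623). The calls of Th (-1.27, adjusted p = 0.0680) and Gad1 (-0.41, adjusted p = 0.206) were lost without the medial habenula libraries and also without the libraries that stood apart. Of 13 regional transcription factors, Nhlh2 and Tbx3 were higher and Six3 (-3.06), Lhx1 (-3.48), Six6 (-3.42), Isl1 (-1.69) and Nr2f2 (-1.09) were lower. Immediate early genes were lower for 9 of 11, such as Fos (-1.81) and Egr1 (-1.81), which were at -0.96 and -0.91 and still passed with at least 5 of 8 gate genes asked of a neuron. Over all genes of this comparison, 1.75% were higher and 8.21% lower.

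Transcripts of other cell types were also lower, and several of the lowest genes named by the rule, such as Ly6a, Ly6c1, Cyr61, Mgp and Gkn3, are vascular. Of the markers tested, 7 of 9 astrocyte, 9 of 10 oligodendrocyte, 5 of 6 endothelial and 4 of 4 mural genes were lower and none was higher (8.21% and 1.75% over all genes). Astrocyte markers took 0.0543% of members' UMIs and 0.226% of those of other neurons, oligodendrocyte markers 0.0800% and 0.272%, mural markers 0.00665% and 0.0692%. Apoe was the most abundant astrocyte marker in both sets, and the only listed one at 0 in members was Gfap. The part of this lower foreign RNA, and of the greater depth of members, in the counts of lower genes was not tested.

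The positive cells on their own were led by Pdyn, Nhlh2, Pcsk1 and Tmem35, which were also among the leading genes of all members. Of 8307 genes, 172 were higher (2.07%) and 899 lower (10.8%) in 13 mice with at least 3 positive cells. Pdyn was higher by 3.90 ± 0.19, Nhlh2 by 3.47 ± 0.25, Pcsk1 by 3.43 ± 0.18, Tmem35 by 3.26 ± 0.18, Dgkk by 2.84 ± 0.22 and Tbx3 by 2.77 ± 0.22. Pcsk1 and Dgkk were higher in 13 of 13 mice and the others in 11 or 12. C1ql2 (2.32), Cited1, a transcriptional coregulator (2.32), and Mrps11 (2.51) also rose.

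Of 12 peptide processing and granin genes, 7 were higher in the positive cells (Pcsk1, Chgb by 1.21, Scg3, Resp18, Scg2 by 0.54, Chga and Scg5) and Pcsk2, the other main convertase, was lower (-0.99 ± 0.23), with a list median of 0.53 against -0.25 over all genes. Nkx2-1 (1.11 ± 0.34, adjusted p = 0.0117), the neuropeptide Y receptor gene Npy1r (2.76 ± 0.28) and the channel gene Trpc5 (0.89 ± 0.28, adjusted p = 0.0163) were higher in these cells. The Nkx2-1 call was lost without the libraries that stood apart (0.94, adjusted p = 0.0856) and without the medial habenula libraries (adjusted p = 0.0691), the Trpc5 call in DESeq2, and the Scg2 call without the libraries that stood apart. Of 8 transmitter genes, 6 were lower, among them Gad1 (-1.43), Gad2 (-1.13) and Slc32a1 (-1.47), the GABA synthesis and packaging genes, of which the Gad2 call was lost in DESeq2 (-1.31, adjusted p = 0.0866).

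The members without a UMI of the 3 genes were compared with other neurons in the same way. Of 8688 genes, 41 were higher (0.472%) and 597 lower (6.87%) in 12 mice, and 6 higher and 417 lower without the 2 libraries that stood apart. Nhlh2 (2.24 ± 0.35) and Gal (0.93 ± 0.20, adjusted p = 0.000142, 11 of 12 mice) were higher, as was Gpr50, an orphan receptor of the melatonin receptor family (2.52 ± 0.33, 9 of 12). Cygb (0.998), Sphkap (0.94) and Pcp4 (0.67) passed over all libraries but not in DESeq2, without the libraries that stood apart or without the medial habenula libraries (0.14, 0.23 and 0.19 in the last). Pdyn did not pass (-0.02 ± 0.40, adjusted p = 0.983). Zic1 was higher by 1.10 in 5 of 12 mice, and was at -0.28 (adjusted p = 0.737) without the 2 libraries with medial habenula cells. Scg2 (-0.82) and Vgf (-1.06) were lower in these cells. The Vgf call was lost without the libraries that stood apart, without the medial habenula libraries and in DESeq2, and the Scg2 and Gal calls in DESeq2. Without both habenula libraries, 11 genes were higher and 513 lower, of which 357 were shared with the 638 of all libraries.

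A direct test of positive against other members had fewer genes to work with. Of 241 genes, 8 were higher (3.32%) and 9 lower (3.73%) in 15 mice with at least 2 cells of each class. Pgrmc1, a membrane component of progesterone signalling, was higher by 1.01 ± 0.19 (14 of 15 mice), Chgb by 0.96 ± 0.25 (11 of 15) and Scg2 by 0.90 ± 0.24 (12 of 15). Pcp4, a calmodulin regulator, was lower by 1.59 on the log2 scale (13 of 15), Gad2 by 1.51 (11 of 15) and Nrxn3 by 1.30 (12 of 15). Without the libraries with medial habenula cells 4 genes were higher and 4 lower of 131 tested, and there the Scg2 call was lost (0.64, adjusted p = 0.0904), and the Pcp4 call was lost without the libraries that stood apart. The Chgb call was also lost without Esr1cKO oil replicate 3 (0.80, adjusted p = 0.0612), the Scg2 call without Esr1cKO tamoxifen replicate 3, the Pcp4 call without Esr1cKO oil replicate 1 and the Nrxn3 call with no filter on low counts (-0.88, adjusted p = 0.295).

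The clearest difference between groups was genotype. Over all members and both treatments, 39 of 1560 genes were higher in Esr1cKO than in wild-type mice (2.5%) and 3 were lower (0.192%), in one fit of the 4 groups with 8 wild-type and 7 Esr1cKO mice. For 22 of these 42 genes the mice of the genotypes did not overlap. That count is a description only, since the same difference called the genes. The share without overlap over all 1560 genes was not counted. Beside this, endothelial markers took 0.0576% to 0.121% of members' UMIs in the 8 Esr1cKO mice and 0.0247% to 0.0553% in the 8 wild-type mice, also without overlap. Of the 7 markers, Bsg, a membrane glycoprotein gene, gave 679 of 726 UMIs and rose in Esr1cKO members (1.31 ± 0.22, edgeR, adjusted p = 0.000892), while Cldn5 had 3 UMIs and Pecam1 13 in all members. The other 8 lists of cell type markers overlapped between the genotypes, and the part of these markers in the genotype result was not tested. Tac2 itself chose the cells and is given without a test, and Nov, Kiss1 and Esr1 were not used to choose members.

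Tac2 in the members was 2951, 2834 and 6248 CPM in wild-type oil mice and 3565, 3507, 3194, 5918 and 2972 in wild-type tamoxifen mice. It was 12045, 10896, 11210 and 10868 CPM in Esr1cKO oil mice and 22132, 8489, 11396 and 16338 in Esr1cKO tamoxifen mice, the 8489 resting on 2 cells. Each Esr1cKO mouse was above each wild-type mouse. In positive cells alone Tac2 was 1760 to 8164 CPM in wild-type and 11751 to 24666 CPM in Esr1cKO mice, and in the other members 2552 to 5722 and 1441 to 5746 CPM.

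Nov, a secreted CCN-family protein, had 0 UMIs in 7 of 8 wild-type mice and 1 UMI (46.5 CPM) in wild-type oil replicate 2. In Esr1cKO mice it was at 569, 1108, 743 and 1070 CPM with oil and 1293, 918, 840 and 670 CPM with tamoxifen, with no overlap between the genotypes. The 918 rested on 8 UMIs in 1 cell. The pooled counts of 515 and 1 UMIs gave a ratio of 314 (95% exact counting interval 56.2 to 12444), and the fit over all genes gave an adjusted p of 3.32e-07 (edgeR). In other neurons Nov was at 20.8 CPM in Esr1cKO and 12.2 CPM in wild-type mice, and in cells outside the neuron gate at 36.1 and 31.2 CPM.

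Pdyn in the members was at 177, 46.5 and 166 CPM in wild-type oil and 459, 93.5, 228, 359 and 14.1 CPM in wild-type tamoxifen mice, where 46.5 rested on 1 UMI and 14.1 on 2 UMIs. In Esr1cKO mice it was at 763, 997, 525 and 247 CPM with oil and 1101, 344, 611 and 792 CPM with tamoxifen, where 344 rested on 3 UMIs in 1 cell. The genotypes overlapped, and Pdyn was higher in Esr1cKO by 2.14 ± 0.50 (edgeR, adjusted p = 0.0193). Its adjusted p was over 0.05 in 6 of 29 other settings, among them the fits without any 1 of the 3 wild-type oil mice. Kiss1 had 34 UMIs in Esr1cKO and 3 in wild-type members, a ratio of 6.92 (95% exact counting interval 2.18 to 35.2), with 5, 1, 2 and 4 UMIs in the Esr1cKO oil and 9, 0, 8 and 5 in the Esr1cKO tamoxifen mice. Of the 3 wild-type UMIs, 2 were in wild-type tamoxifen replicate 1 and 1 in wild-type tamoxifen replicate 4, so the ratio depends on single mice. Over all neurons, where Tac2 chose no cells, Kiss1 had the same 34 UMIs in Esr1cKO and 10 in wild-type mice, a ratio of 3.15 (1.52 to 7.14). These intervals pool the UMIs of the mice and leave out the spread between mice. In members Kiss1 had too few UMIs to be tested. Esr1 was at 264 ± 134 CPM in wild-type (n = 8) and 173 ± 113 CPM in Esr1cKO mice (n = 7) and did not pass (-0.76 ± 0.53, edgeR, adjusted p = 0.668).

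**Figure D4:**
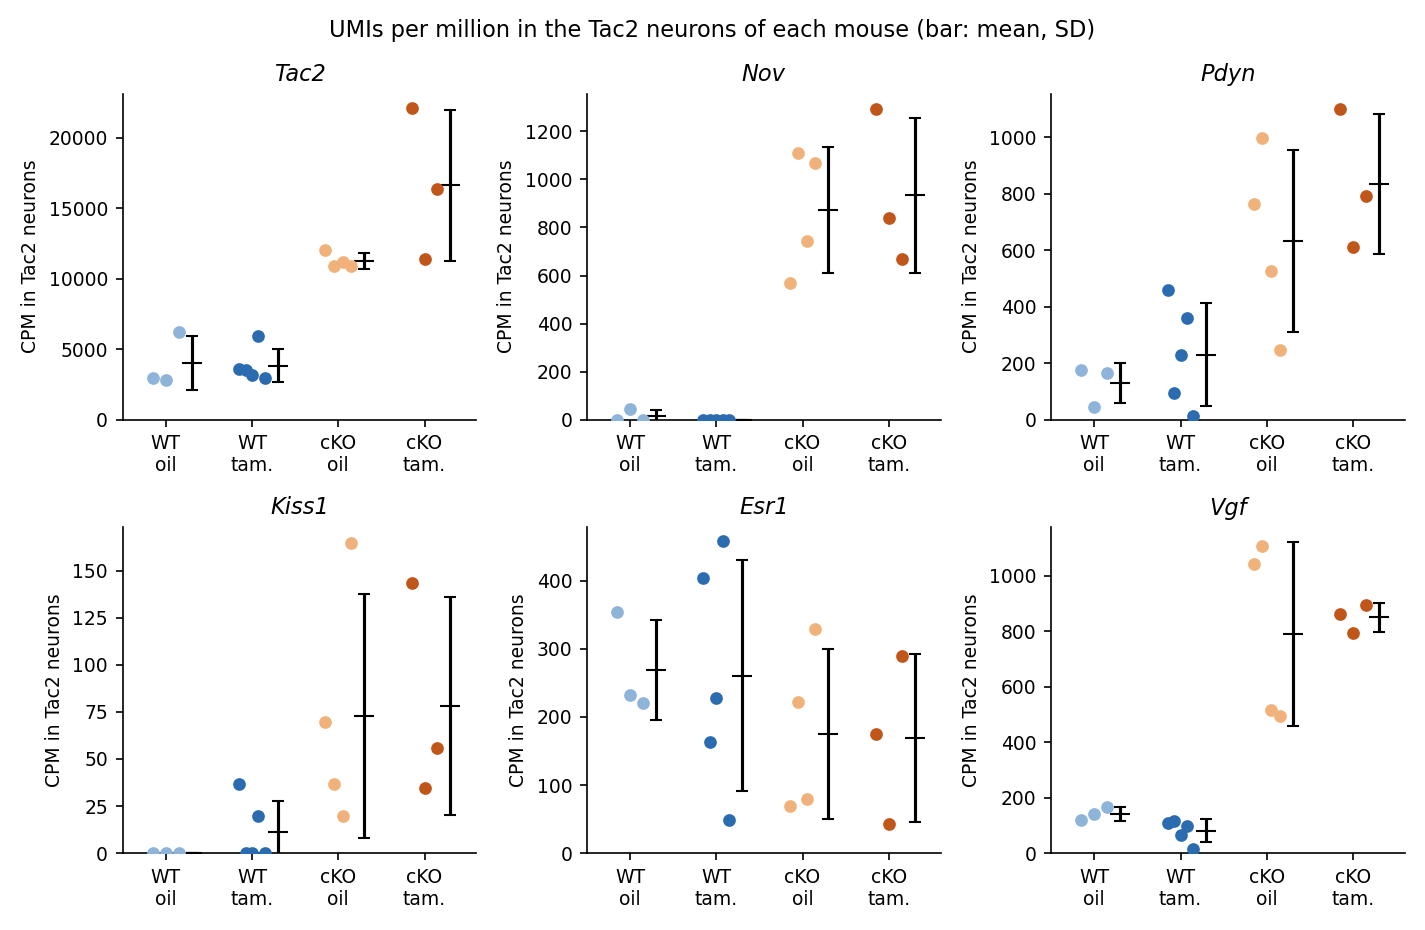
CPM (y axes from 0) of Tac2, Nov, Pdyn, Kiss1, Esr1 and Vgf in the Tac2 neurons of each mouse (points) by group (x axis), with the mean and SD beside them and the mouse with 2 members left out. For Tac2, Nov and Vgf the Esr1cKO mice lie above all wild-type mice, with Tac2 from 10868 CPM against at most 6248 CPM, and for Esr1 they overlap.

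Vgf differed between the genotypes without overlap. Vgf, a secreted granin-like neuropeptide precursor, was at 118, 139 and 166 CPM in wild-type oil mice, and at 110, 117, 65.2, 99.6 and 14.1 CPM in wild-type tamoxifen mice, each resting on 2 to 6 UMIs. It was at 1041, 1108, 515 and 494 CPM in Esr1cKO oil and at 862, 2294, 793 and 893 CPM in Esr1cKO tamoxifen mice. The 2294 rested on 2 cells, and that mouse was not in the fit. The difference was 3.01 ± 0.33 (edgeR, adjusted p = 1.27e-05).

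Of 12 peptide processing and granin genes, 4 were higher in Esr1cKO members and none was lower (2.5% and 0.192% over all genes), with a list median of 0.80 against -0.03 over all genes. Chgb, which encodes chromogranin B, rose by 1.99 ± 0.26 (edgeR, adjusted p = 9.89e-05), from 779 ± 399 to 3066 ± 710 CPM. Pcsk1 rose by 2.68 ± 0.37, from 130 ± 83.2 to 755 ± 212 CPM, Resp18 by 1.63 ± 0.28 and Scg5 by 0.92 ± 0.18. All 4 showed no overlap between the mice of the genotypes. Chgb (0.73), Resp18 (0.33) and Scg5 (0.05) did not pass in members without an Esr1, Nov or Kiss1 UMI, a class set by the dividing genes. Over all members, Scg2 (0.69 ± 0.34, edgeR, adjusted p = 0.424) and Chga (1.28 ± 0.44, edgeR, adjusted p = 0.163) did not pass. Bdnf, a neurotrophin, rose by 5.39 ± 1.01 (edgeR, adjusted p = 0.00469), but was at 0 in Esr1cKO oil replicate 4 and in 4 of 8 wild-type mice.

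Genes outside peptide secretion moved as well. The MHC class I gene H2-D1 was at 162 ± 98.4 CPM in wild-type and 791 ± 210 CPM in Esr1cKO mice, a rise of 2.46 ± 0.33, and its partner B2m was at 61.8 ± 51.1 and 398 ± 120 CPM, a rise of 2.71 ± 0.37 (edgeR, adjusted p = 9.89e-05 for both). Reads of H2-D1 can be shared with other class I genes, so its value is uncertain. Hs6st2, a heparan sulfate sulfotransferase, rose by 2.75, Cdk2ap2 by 3.29, Cd59a, a complement inhibitor, by 2.64 and Cited1 by 2.42. The Cd59a call was lost in 8 of 29 other settings and the Cited1 call in 4. The 3 lower genes, Map2k1 (-1.58 ± 0.33), Rbms3 (-1.57 ± 0.40) and Pde4b (-1.70 ± 0.45), overlapped between the genotypes. The Pde4b call was lost in 15 of 28 other settings, the Rbms3 call in 13 of 29 and the Map2k1 call in 4 of 29.

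**Figure D5:**
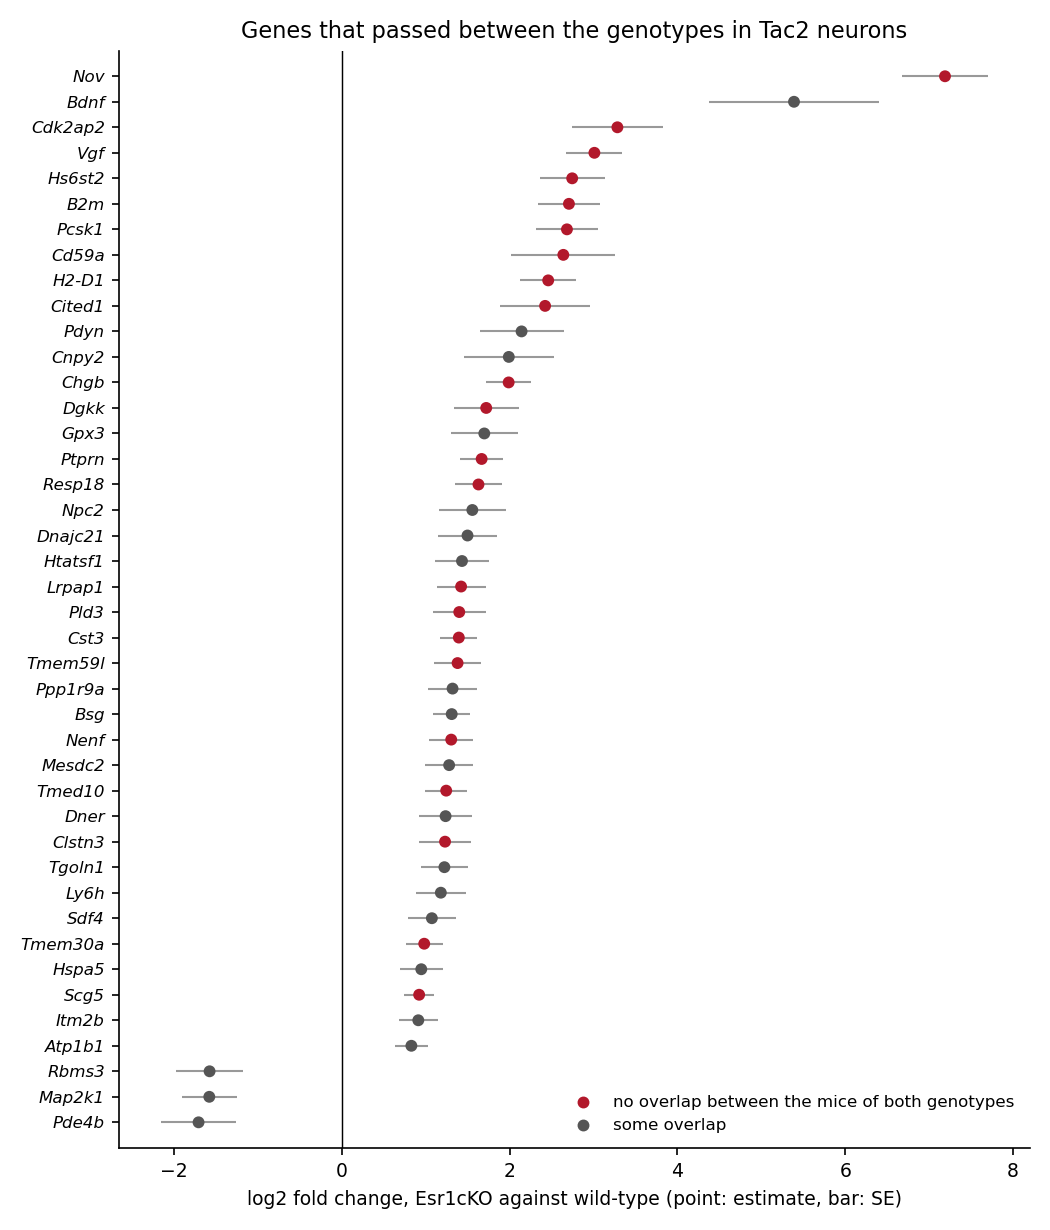
Log2 fold change between Esr1cKO and wild-type mice (x axis, point with SE bar) of the 42 genes that passed in Tac2 neurons (y axis, 1 row per gene), coloured by whether the mice of the genotypes overlap. Nov stands farthest at 7.19, 39 genes lie to the right of 0 and 3 to the left.

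Positive cells were a mean of 60.8% of Esr1cKO and 40.8% of wild-type members. Nov, which differed most by genotype, is one of the genes that makes a cell positive, so no calls by genotype within the classes are read. How far a change in which cells are members and a change of transcript per cell each contribute cannot be told apart. Without the libraries with medial habenula cells 70 genes were higher and 25 lower, with all 42 among them, and without the 2 libraries that stood apart 47 and 7, with 37 of the 42.

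Values within successive fours of library numbers are given next, where Tac2, which chose the members, is a description. Tac2 in members was at 16737 against 3419 CPM in Esr1cKO and wild-type mice of libraries 1 to 4, 10310 against 3281 in 5 to 8, 11340 against 4327 in 9 to 12 and 15171 against 3742 in 13 to 16. Nov was at 906 against 0, 1062 against 15.6, 811 against 0 and 755 against 0 CPM, and Pdyn at 920 against 392, 838 against 77.8, 585 against 205 and 676 against 104 CPM. Nov and Pdyn were thus higher in Esr1cKO mice in each of these 4 sets, while Esr1 went both ways, at 119 against 392, 196 against 187, 54.2 against 226 and 299 against 156 CPM.

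Over all neurons of a mouse, where Tac2 chose no cells, Tac2 was at 69.8, 48.3 and 88.9 CPM in wild-type oil and 125, 132, 71.2, 196 and 351 CPM in wild-type tamoxifen mice. It was at 656, 314, 539 and 187 CPM in Esr1cKO oil and 1001, 158, 1073 and 1308 CPM in Esr1cKO tamoxifen mice. The difference by genotype was 2.52 ± 0.42 (edgeR, adjusted p = 0.0703 over 13663 genes), and it passed without the 2 libraries that stood apart (2.61, adjusted p = 0.0275) and in DESeq2 (2.51, adjusted p = 7.90e-05). Nov was the 1 gene called over all neurons (0.00732%), by 2.42 ± 0.35 (edgeR, adjusted p = 0.0303), a call lost in 10 of 20 other settings. Pdyn (0.56 ± 0.19) and Esr1 (-0.37 ± 0.24) did not pass (edgeR, adjusted p = 1 for both).

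Over all libraries, tamoxifen against oil gave no called gene in the Tac2 neurons. In wild-type mice 0 of 1560 genes passed (0%) and 76 had an unadjusted p under 0.05, in Esr1cKO mice 0 passed (0%) with 24, and the interaction of treatment and genotype gave 0 (0%) with 54 (edgeR). Without the libraries with medial habenula cells, Kcnip4, a potassium channel subunit gene, was called in wild-type mice (-2.15, adjusted p = 0.0155, against -2.38, adjusted p = 0.829 over all libraries), Pcp4 (-3.86) and Nts (-5.01), the neurotensin gene, in Esr1cKO mice, where Pcp4 was at 0.20 over all libraries, and Kcnip4 (2.94) and Pcp4 (-3.61) for the interaction. In that fit Esr1cKO tamoxifen mice were 2, with 5 and 3 Pcp4 UMIs and 1 and 0 Nts UMIs. Kcnip4 was at 590, 2787 and 111 CPM in the wild-type oil mice and 120 to 418 CPM in the wild-type tamoxifen mice, which overlap. Without the libraries that stood apart, Kcnip4 (-2.93) and Negr1 (-2.67) were called in wild-type mice and Kcnip4 (3.72) for the interaction. With no filter on low counts 18 genes were called in wild-type and 23 in Esr1cKO mice. Over all neurons 0 of 13663 genes passed in each of these contrasts (0%), with 434, 431 and 623 at an unadjusted p under 0.05. With fours of library numbers as a block, Ccdc146 (-1.85), Gm216 (-1.71) and Tmem212 (-1.72) were called as lower with tamoxifen over all neurons of wild-type mice. Tac2 over all neurons was higher with tamoxifen by 1.35 ± 0.61 in wild-type and by 1.07 ± 0.54 in Esr1cKO mice and did not pass in either (edgeR, adjusted p = 1 for both), and the interaction was -0.29 ± 0.79. Tac2 was higher in 4 of 5 wild-type tamoxifen mice than in each oil mouse, the highest (351 CPM) being the mouse with medial habenula cells. In Esr1cKO mice 3 of 4 tamoxifen mice, among them the other mouse with such cells (1073 CPM), were above each oil mouse, and the other one (158 CPM) was below each.

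Tac2 neurons were also compared with 3 other peptide classes, neurons with at least 3 UMIs of Agrp (55 cells), Pomc (66 cells) or Gal (571 cells) and fewer than 3 of Tac2. Against Agrp neurons, which drive feeding, 32 of 325 genes were higher in Tac2 neurons (9.85%) and 33 lower (10.2%) in 8 mice. Gal (5.04 ± 0.35), Chgb (1.83 ± 0.27) and Scg2 (1.14 ± 0.20) were higher, and Dlk1 (-2.41 ± 0.28), Cited1 (-1.72 ± 0.26) and Pcsk1n (-0.95 ± 0.13), as well as Npy with 0 against 2528 UMIs (at least 2567-fold), were lower. Against Pomc neurons, 10 of 507 genes were higher (1.97%) and 28 lower (5.52%) in 11 mice, with Gal (1.52 ± 0.36), Pgrmc1 (1.42 ± 0.22) and Chgb (0.88 ± 0.20) higher and Calb1, a calcium-binding protein (-2.21 ± 0.26), and Dlk1 (-1.60 ± 0.35) lower.

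Against Gal neurons, 39 of 1973 genes were higher (1.98%) and 29 lower (1.47%) in 15 mice. Tac2 neurons were higher for Tmem35 (2.81 ± 0.24, 15 of 15 mice), the cadherin gene Cdh8 (1.58), Slc17a6 (1.24 ± 0.26), Vgf (1.30 ± 0.26), Prlr (1.07 ± 0.22) and Cited1 (1.10). They were lower for the peptide genes Cartpt (-3.21 ± 0.29) and Penk (-2.06 ± 0.35), for Dlx1, a transcription factor of GABA neurons (-1.59), and for Gad1 (-0.89 ± 0.24) and Slc32a1 (-1.09 ± 0.30). The Slc32a1 call was lost without the libraries that stood apart (-1.03, adjusted p = 0.123). None of 11 tested processing and granin genes differed past the threshold.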

How the data were processed

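The authors deposited 1 matrix of raw UMI counts (genes by barcodes, not normalized) per library, made per the submitters' processing notes with STAR 2.6, Seurat 3.6.1 and the mm10 build. No cell annotation was used. The cell filter asked for over 200 genes, below 4000 genes and under 15% mitochondrial UMIs. Scrublet (scanpy 1.11.5, expected rate 0.05) marked 0.0789% to 2.36% of cells per library and 2 members as doublets, and none was removed. UMIs were summed per mouse and class of cells (at least 3 cells, or 2 for positive against other members) and tested with edgeR 4.0.16 (R 4.3.3; TMM, filterByExpr, quasi-likelihood test, Benjamini-Hochberg adjustment, threshold 0.05). Comparisons between classes had the mouse as a block, and the 4 groups entered 1 fit. Genes of the rule were left out of the calls. DESeq2 1.42.0, other filters, left-out libraries and other member rules were alternatives. Shares per mouse were compared by two-sided exact permutation tests (SciPy 1.17.1), and intervals for shares of cells are exact binomial (Clopper-Pearson, 95%) and cover counting error only. Intervals for ratios of UMIs pool the mice and also cover counting error only. Shares at 1000 UMIs are the exact expectation of drawing without replacement, chosen after seeing the data. The programs were tested on simulated data. Replicates were numbered in accession order, which pairs no samples. Each library is 1 mouse by the labels.

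The members and gene lists were chosen with earlier results of these data known. Genes named are those of the lists and, per comparison, up to 10 in each direction with the largest log2 difference among called genes with at least 20 UMIs in the higher cells and the same direction in 3 in 4 libraries (no overlap for group contrasts). Calls outside that rule (Zic1, Nhlh2 of the other members, Bdnf, Map2k1, Rbms3, Pde4b, Kcnip4, Negr1, Nts, Ccdc146, Gm216 and Tmem212 among them) and Sox14 and Inhbb were named after their values were seen. Results for 1 listed gene are not reported here.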

Additional observations from a re-analysis of the deposited data

Results flagged for a closer look

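Of 50 groups of at least 4 mice examined for a single mouse far from the rest, 9 held one, each a group of 4 or 5 mice. Chance alone gives about 1 in 20. In wild-type tamoxifen replicate 5, Tac2 neurons were 6.39% of neurons (1.44% to 2.74% in the other 4 mice of the group), members without an Esr1, Nov or Kiss1 UMI were 5.47% (0.622% to 1.89%) and neurons with 3 or more medial habenula genes were 6.93% (0% to 0.221%). In Esr1cKO tamoxifen replicate 3, members without a UMI of the 3 genes were 4.77% of neurons (0.403% to 0.823%) and neurons with 3 or more medial habenula genes were 4.28% (0% to 0.712%). In Esr1cKO oil replicate 3 the latter were 0.121%, which is 1 cell of 828 neurons, against 0% in the other 3 mice, where any single cell would stand apart.

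Wild-type tamoxifen replicate 4 was highest of its group for Tac2 in members, at 5918 CPM (2972 to 3565 CPM in the others), and for Bdnf, at 120 CPM (0 to 23.4 CPM). Esr1cKO oil replicate 4 was lowest of its group for Pdyn over all neurons, at 34.2 CPM (67.0 to 70.2 CPM).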

How the results depend on the processing

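Of the values that answer a comparison, 399 stayed the same under an alternative, and 52 moved, 15 reversed, 6 became and 11 ceased to be called. For a count of called genes, the same means a count of similar size and moved one that was not, whichever genes were called. For other values, the same means the same direction and side of the threshold. Of the values of single named genes, 2143 kept their direction and side of the threshold, 184 ceased to be called and 6 reversed. The values that answer a comparison include shares of positive cells, which are given above as a description. The cause of these changes was not tested. Genes called in Tac2 neurons against other neurons were 403 with 5 of 8 gate genes, 337 under 5% mitochondrial UMIs and 2570 with no filter on low counts. Positive cells gave 706 in DESeq2, and the other members 423 without the 2 libraries that stood apart and 222 in DESeq2. In the other members Pdyn turned to 0.42 without the libraries that stood apart, 0.26 in DESeq2 and 0.93 without the medial habenula libraries, and Zic1 to -0.28 in the last. Without the libraries that stood apart, Pomc neurons gave 24 calls and Gal neurons 36. Positive against other members gave 77 with Nov or Kiss1 as the only dividing genes, 10 without the libraries that stood apart, 68 with no filter and 8 without the medial habenula libraries.

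Tamoxifen in wild-type members gave 1 call in positive cells, 18 with no filter, 2 without the libraries that stood apart and 1 without the medial habenula libraries; in Esr1cKO members it gave 23 with no filter and 2 without the medial habenula libraries, and the interaction gave 1 without the libraries that stood apart and 2 without the medial habenula libraries. Genotype in members gave 23 with at least 5 cells per library, 93 with no filter, 95 without the medial habenula libraries, 65 with medial habenula cells removed and 0 of 570 in the other members (edgeR, 5 at an unadjusted p under 0.05), a class set by the dividing genes, where Gpx3 (-0.042) and Atp1b1 (-0.058) reversed. Over all neurons, tamoxifen in wild-type mice gave 3 calls with fours of libraries as a block, and genotype gave 5 without the libraries that stood apart, 10 in DESeq2 and 2 with the block. Tac2 by genotype over all neurons passed without the libraries that stood apart (2.61) and in DESeq2 (2.51).

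The share of Tac2 neurons differed by 0.420 percentage points with tamoxifen in wild-type mice in positive cells alone, and by genotype by -0.199 without the libraries that stood apart, 0.757 in positive cells and -0.253 in the others. The positive share of members differed with tamoxifen by -1.16 (Nov or Kiss1 only) and -12.1 (thinned) in wild-type and -3.27 (at least 5 Tac2 UMIs) in Esr1cKO mice, and by genotype by 15.5 (thinned) and 25.7 (at least 5 Tac2 UMIs), all given as a description.

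Leaving out 1 mouse at a time gave 717 to 922 calls against other neurons, 9 to 19 for positive against other members and 23 to 72 by genotype (23 without wild-type oil replicate 1, 72 without Esr1cKO tamoxifen replicate 3), and 0 to 2 by genotype over all neurons. Tac2 over all neurons ranged from 2.36 to 2.73 by genotype and -0.55 to 0.15 for the interaction. The share of Tac2 neurons with tamoxifen ranged from 0.686 (without wild-type tamoxifen replicate 5) to 1.92 percentage points in wild-type and 0.301 (without Esr1cKO tamoxifen replicate 3) to 2.23 in Esr1cKO mice. The share of Tac2 neurons by genotype ranged from -0.0435 (without Esr1cKO tamoxifen replicate 3) to 1.09 percentage points, and the positive share from -2.50 to 9.995 and -9.33 to 16.8 with tamoxifen in wild-type and Esr1cKO mice and 16.2 to 25.5 by genotype. With 2 to 54 members per mouse, genes under 3 UMIs in a mouse cannot be read. No paired analysis was possible because the labels number the libraries 1 to 16 across the groups, so that no replicate number is shared between groups. Successive fours of library numbers were used as a block instead: by genotype 36 genes were then called in members, 34 of them among the 42, and the calls of Pde4b, Hspa5, Gpx3 and Atp1b1 were lost. The study's methods say that 4 mice were processed on each of 4 days, and which libraries shared a day is not given in the sources used here.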

Other observations

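Of 16 listed hormone and energy receptor genes, 7 could be tested in positive cells against other neurons, where Prlr and Npy1r were higher and Gabbr2 was lower (edgeR, adjusted p under 0.05). Over all genes of that comparison, 2.07% were higher and 10.8% lower. Among positive cells Npy1r was in 48.7% of Esr1cKO and 12.8% of wild-type cells, and in 3.24% of other neurons (17.9%, 3.01% and 1.58% with each cell taken at 1000 UMIs). Npy5r was in 46.1%, 12.8% and 1.60% (14.1%, 4.22% and 0.829% at that depth) and the melanocortin receptor gene Mc3r in 15.8%, 2.56% and 0.467% (2.57%, 0.375% and 0.216%). In wild-type positive cells these shares at 1000 UMIs stand for at most 2 of 37 cells. Insr was in 17.1%, 20.5% and 8.45%, and in 4.68%, 4.23% and 4.30% at that depth, while Lepr, Ghsr, Mc4r and Npy2r were each in 2 or 3 of the 115 positive cells. Nr5a2, which is not on the list, was in 35.5%, 38.5% and 1.49% (10.6%, 18.5% and 0.694%).

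Outside the neuron gate, 12 cells of 7 mice held at least 3 Tac2 UMIs, with a highest value of 22 and a median depth of 332.5 UMIs, and 2 of them held a UMI of Esr1, Nov or Kiss1. Tac2 in neurons that were not members was at 13.5 CPM in Esr1cKO and 7.23 CPM in wild-type mice, and Pdyn in them at 40.8 and 47.4 CPM.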
